A study of Mus musculus with 4 samples.

Results

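The Reg family genes Reg1, Reg2, Reg3a, Reg3b, Reg3d and Reg3g were read from RNA-seq counts of mouse pancreatic islets, the small groups of endocrine cells that lie within the exocrine pancreas. The members are the 6 rows of the count table whose Ensembl identifiers carry these symbols, out of 52636 genes, and all 6 were found. There were 2 libraries from wild-type mice, called control, and 2 from mice without Tspan7, a tetraspanin gene of the X chromosome (Tspan7y/-), called knockout. The series text writes KD where the sample labels write KO. The labels name no strain, age, treatment or time and do not say how the allele was made, in which cells it acts, or whether a library came from 1 animal or from several. The 4 libraries held between 7855665 and 9377220 counts. Tspan7 gave 1924 and 1795 counts in control replicates 1 and 2 and 3 and 2 in knockout replicates 1 and 2, so the target matched the labels. Replicates were not alike: control replicate 2 was lower than control replicate 1 by more than 4-fold in 49 of 15126 genes counted in every library and higher in 15, and knockout replicate 2 was lower than knockout replicate 1 in 9 and higher in 40. The 16 islet endocrine markers summed to between 31571 and 38165 CPM (counts scaled to library size) in each library. Since no label ties the libraries to separate animals, the p-values given here reflect spread among these 4 libraries alone, and that spread may be technical.

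Reg genes encode small secreted proteins with a C-type lectin fold. In the mouse pancreas Reg1 and Reg2 are best known as products of the acinar cells, the exocrine cells that make digestive enzymes, and Reg1 is the gene of lithostathine, the pancreatic stone protein. Reg3b and Reg3g encode antimicrobial lectins that rise in injured pancreas and in infected gut, where interleukins 6 and 22 act on their promoters through STAT3. Reg3d is also known by the name INGAP-related protein, and several Reg proteins have been studied as growth factors for islet cells, with Extl3 proposed as a receptor. The members stand side by side in 1 cluster on chromosome 6, in the order Reg3b, Reg3d, Reg3a, Reg2, Reg1 and Reg3g in the RefSeq annotation of GRCm38.p6.

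The sequences before the start sites are shown for Reg1, the most abundant member, for Reg2, its closest relative, and for Reg3d, the next member by level. They come from RefSeq (GRCm38.p6, matched for 6 of 6 members) and run from 250 to 61 bases before the start of each gene. The authors counted on GRCm39, so these positions serve only to locate the sequence. Capitals mark 2 motifs searched on both strands: CANNTG (an E-box) followed after 6 bases by TTCCC, a layout like that of the composite sites bound by the acinar factor PTF1, and TTCNNNGAA, a STAT motif.
Reg1, chr6:78425733-78425922, plus strand: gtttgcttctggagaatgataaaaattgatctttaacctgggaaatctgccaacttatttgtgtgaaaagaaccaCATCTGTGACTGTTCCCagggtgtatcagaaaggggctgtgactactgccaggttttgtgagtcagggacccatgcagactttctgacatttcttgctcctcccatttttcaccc
Reg2, chr6:78404905-78405094, plus strand: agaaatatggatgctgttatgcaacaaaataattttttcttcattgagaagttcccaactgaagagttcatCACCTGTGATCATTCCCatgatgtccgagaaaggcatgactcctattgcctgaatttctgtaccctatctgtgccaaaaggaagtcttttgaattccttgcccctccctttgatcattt
Reg3d, chr6:78378926-78379115, minus strand: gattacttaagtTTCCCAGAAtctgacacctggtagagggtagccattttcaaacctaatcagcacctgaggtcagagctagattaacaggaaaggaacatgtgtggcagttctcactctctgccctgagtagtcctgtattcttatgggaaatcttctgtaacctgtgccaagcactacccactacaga

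The composite motif lay at bases -175 to -159 of Reg1 and at -179 to -163 of Reg2, and in none of the other 4 members within 250 bases before the start. It was present in 97 of 32851 RefSeq promoter entries of the same length (0.295%) and in 0 of 33 entries of acinar marker genes. Its spacing was set after the Reg1 and Reg2 sequences had been read, so the match is a description of these letters. The E-box CACCTG was present in Reg2, Reg3a, Reg3b and Reg3d, in 17.2% of all entries and in 17 of the 33 acinar entries. In Reg2 it is part of the composite motif. The STAT motif lay at bases -129 to -121 of Reg3b and at -238 to -230 of Reg3d, and in 7.02% of all entries. Binding was not measured, and a match shows only that these letters are present.

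The members are related in sequence but distinct. Over the GENCODE M21 transcript numbered 201 of each gene, Reg1 and Reg2 were 78.9% identical, the highest value among the 15 pairs, and Reg2 and Reg3g were 62.4% identical, the lowest. No pair shared a word of 50 bases, and Reg3b and Reg3g alone shared words of 30, with a common run of 35 bases. The sources used here give neither the read length nor the handling of reads with several matches.

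Reg1 (ENSMUSG00000059654) gave nearly all counts of the family. It held 1918 of the 1979 counts over the 4 libraries, or 96.9% (exact binomial 95% interval 96.1% to 97.6%, for counting error only). Control replicates 1 and 2 gave 500 and 32 Reg1 counts, and knockout replicates 1 and 2 gave 417 and 969. After TMM scaling of the libraries, these are 58.9, 3.39, 43.2 and 128 CPM in the same order. Control replicate 2 was the lowest library by a wide margin, and control replicate 1 fell between the knockout libraries, so the groups overlapped. The 6 members together took 0.00592% and 0.000383% of control libraries 1 and 2, and 0.00464% and 0.0127% of knockout libraries 1 and 2.

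Reg3d (ENSMUSG00000068341) was the next member, with 8 and 1 counts in control replicates 1 and 2 and 6 and 19 in knockout replicates 1 and 2. Its libraries stood in the same order as those of Reg1. Per 100 counts of Reg1 there were 1.6, 3.12, 1.44 and 1.96 of Reg3d in the 4 libraries, and the exact intervals of these ratios all overlapped. In control replicate 2 the ratio rests on 1 count of Reg3d (95% interval 0.0768 to 18.7). At such low counts the overlap cannot show that the ratio was constant. Reg2 (ENSMUSG00000023140) gave 3 and 1 counts in the control and 11 and 3 in the knockout libraries. It was highest in knockout replicate 1, where Reg1 was not. Reg2 made 2.64 counts per 100 of Reg1 in that library (95% interval 1.31 to 4.77) and 0.310 in knockout replicate 2 (0.0637 to 0.907), and these intervals do not overlap.

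The antimicrobial members were at the limit of detection. Reg3b (ENSMUSG00000071356) had 2 and 1 counts in control replicates 1 and 2 and 0 and 1 in knockout replicates 1 and 2. Reg3g (ENSMUSG00000030017) had 1 and 0 counts in the control and 1 and 1 in the knockout libraries, and Reg3a (ENSMUSG00000079516) had 1 and 0 against 0 and 1. None of these 3 genes exceeded 3 counts in any library, the detection floor used here, which equals 0.310 to 0.396 CPM. The plot of counts by member shows Reg1 apart from the other members in all libraries.

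**Figure D1:**
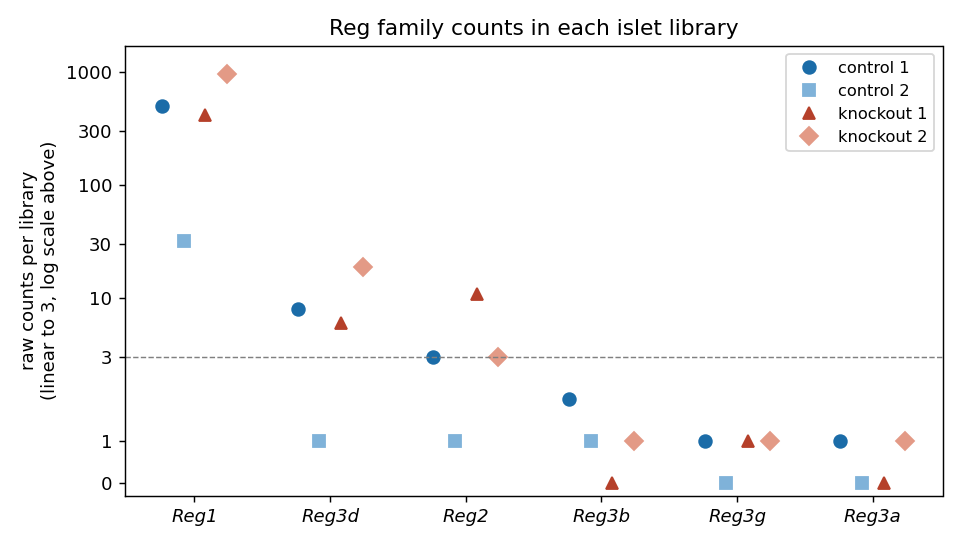
Raw counts of the 6 Reg genes in each library (vertical axis, linear up to the floor of 3 counts drawn as a dashed line and logarithmic above it), with 1 point per library. Reg1 runs from 32 to 969, Reg3d reaches 19, Reg2 reaches 11, and Reg3b, Reg3g and Reg3a stay at 2 or fewer.

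Levels of different genes were compared per kilobase of transcript. The order by the mean over the 4 libraries was Reg1 (75.9 CPM per kilobase), Reg3d (1.34), Reg2 (0.714), Reg3b (0.151), Reg3g (0.115) and Reg3a (0.0758). Reg1 was the highest member in every library. Reg3d and Reg2 did not differ beyond their spread, at 0.135 to 3.21 and 0.152 to 1.63 CPM per kilobase, and Reg2 was the higher of them in knockout replicate 1 and, at 1 count of each gene, in control replicate 2. Reg3b, Reg3g and Reg3a rest on 4, 3 and 2 counts in all, and their order is not resolved.

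The comparison of knockout with control asks whether loss of Tspan7 alters the expression of these genes in islets. Of the 6 members, Reg1 alone passed the filter on low counts and entered the test over 16924 genes. Its mean was 31.2 ± 39.3 CPM over the control and 85.6 ± 59.98 CPM over the knockout libraries (SD, n = 2 each). The log2 fold change was 1.46 ± 1.77 (SE), with a 95% confidence interval of -5.51 to 8.43. Its adjusted p was 0.9998 (unadjusted 0.489) in edgeR's quasi-likelihood test with Benjamini-Hochberg adjustment. Thus 0 of 1 tested members was called, where 0.00591% of all genes were, namely Tspan7. At an unadjusted p under 0.05, the share was 3.51% of all genes and Reg1 was not among them. The interval spans changes of many-fold in both directions, so a difference in Reg1 was neither shown nor bounded.

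The size of the Reg1 value depended on single libraries. It was 4.64 without control replicate 1, 0.53 without control replicate 2, 2.05 without knockout replicate 1 and 0.47 without knockout replicate 2, and 2.44 in limma-voom with all libraries. None of these had an adjusted p under 0.05, and the lowest was 0.823, without control replicate 1.

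**Figure D2:**
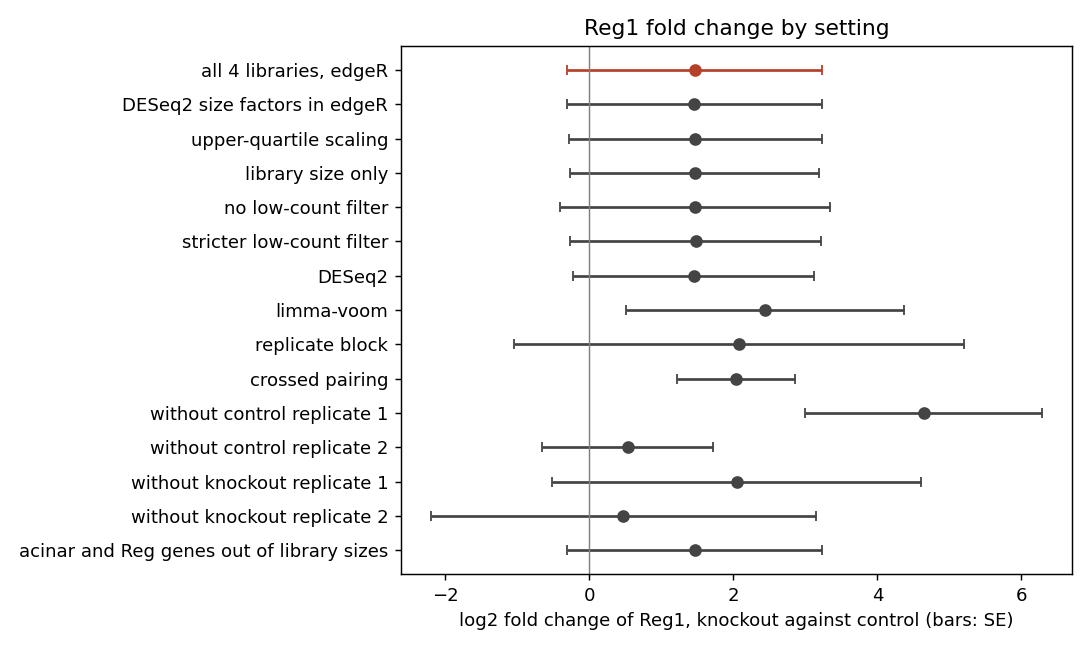
Log2 fold change of Reg1, knockout against control, with its standard error (horizontal bars), under the main edgeR fit (red, 1.46) and each alternative that gives a standard error. All points lie above 0, from 0.47 without knockout replicate 2 to 4.64 without control replicate 1. The bars of most settings, the main fit among them, reach below 0.

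The other 5 members did not pass the filter on low counts, and the fit without it gave them values. Reg3d had a log2 fold change of 1.55 ± 0.64 (SE) and Reg2 of 1.78 ± 0.88, with adjusted p of 0.809 and 0.952 in edgeR's quasi-likelihood test. Before adjustment their p were 0.0162 and 0.0435, a level under 0.05 that 4.37% of the 32032 genes of that fit reached. Confidence intervals in that fit were 0.286 to 2.81 for Reg3d and 0.052 to 3.51 for Reg2, against -6.61 to 9.54 for Reg1. Relative to the SE, the intervals of Reg3d and Reg2 were narrower than that of Reg1, whose SE was 1.88. The SE and p of Reg3d and Reg2 thus rest on spread shared across genes, with little weight on their own replicates. For Reg3d the knockout libraries held 25 counts and the control libraries 9. The sums for Reg2 were 14 and 4. Counting intervals of these sums (exact Poisson, counting error only) were 16.2 to 36.9 against 4.12 to 17.1 for Reg3d and 7.65 to 23.5 against 1.09 to 10.2 for Reg2, and both pairs overlap. Replicates differed by as much, since knockout replicate 2 alone gave 19 of the 25 Reg3d counts and knockout replicate 1 gave 11 of the 14 Reg2 counts. No direction can be read for Reg3a, Reg3b and Reg3g.

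Libraries of the same group differed in Reg1 more than nearly all genes did. Control replicate 2 lay below control replicate 1 by a log2 difference of -4.12, and knockout replicate 2 lay above knockout replicate 1 by 1.57. The median absolute log2 difference was 0.209 between the control and 0.205 between the knockout libraries. Over the 4 libraries the highest Reg1 level was 37.8 times the lowest, which ranked 30 of the 15126 tested genes that had a count in every library and averaged 1 or more on the log2 CPM scale. Of the 29 genes with a wider span, 25 belong to the list of acinar cell markers. The other 4 were Tspan7, Dmbt1, Erp27 and 2210010C04Rik, named after their values were seen. The list need not hold every acinar gene, so a place outside it does not make a gene non-acinar.

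**Figure D3:**
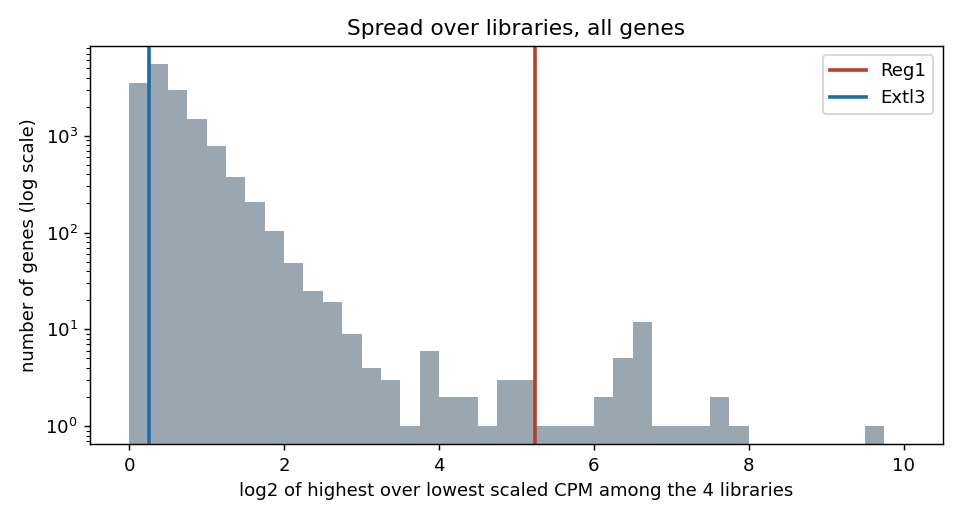
Number of genes (log scale) by the log2 ratio of their highest to their lowest CPM among the 4 libraries, for 15126 genes. Reg1 (red line, 5.24) lies far to the right of the median of 0.42, while Extl3 (blue line) lies among the bulk of genes.

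Acinar cell genes moved with Reg1 from library to library. The 37 acinar markers found in the table summed to 4506 and 193 CPM in control replicates 1 and 2 and to 2061 and 9506 CPM in knockout replicates 1 and 2, and the Reg members summed to 60.7, 3.71, 45.0 and 131 CPM in the same order. Pnlip, the gene of pancreatic lipase, gave 4327 and 100 counts in the control and 2136 and 7640 in the knockout libraries. The carboxypeptidase genes Cpb1 and Cpa1 followed the same order, with 3681, 108, 1787 and 6893 counts and 3581, 100, 1813 and 6422 counts. In control replicate 2 the markers Prss3, Try10, Amy2a5 and Ptf1a were at 0 counts. Acinar transcripts were thus present in every islet library at very different amounts, and their part in the Reg1 result was not tested. In such bulk samples, fewer cells of a type and less RNA per cell cannot be told apart.

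Of 33 acinar markers tested and counted in every library, 29 ranked the 4 libraries exactly as Reg1 did, with spans from 28.2-fold to 216-fold. The other 4 were Amy1, Dnase1, Bhlha15 and Nr5a2, which spanned 1.23-fold to 2.08-fold. Bhlha15 encodes a transcription factor of secretory cells and Nr5a2 a nuclear receptor. Between the groups, 33 of the 35 tested acinar markers had positive log2 fold changes, with a median of 1.32 against 0.00332 for all genes tested, and 0 were called. The trypsinogen gene Prss3 alone had an unadjusted p under 0.05, at 6 and 0 counts in the control and 14 and 46 in the knockout libraries (log2 fold change 3.38 ± 1.17, adjusted p = 0.9998 in edgeR). Without the filter on low counts, its adjusted p was 9.20e-05 in the same test. The counts were the same and the SE was 0.59 in place of 1.17. The call on Prss3 thus depended on how each fit estimated spread, and its replicates did not agree more closely. The elastase-family gene Cela3a stood at 1.98 ± 0.96. Leaving the acinar markers and the Reg members out of the library sizes left the Reg1 value at 1.46. Little change was possible, as the acinar markers summed to at most 9506 CPM in a library. This setting alters the scaling alone and does not adjust Reg1 for acinar content.

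**Figure D4:**
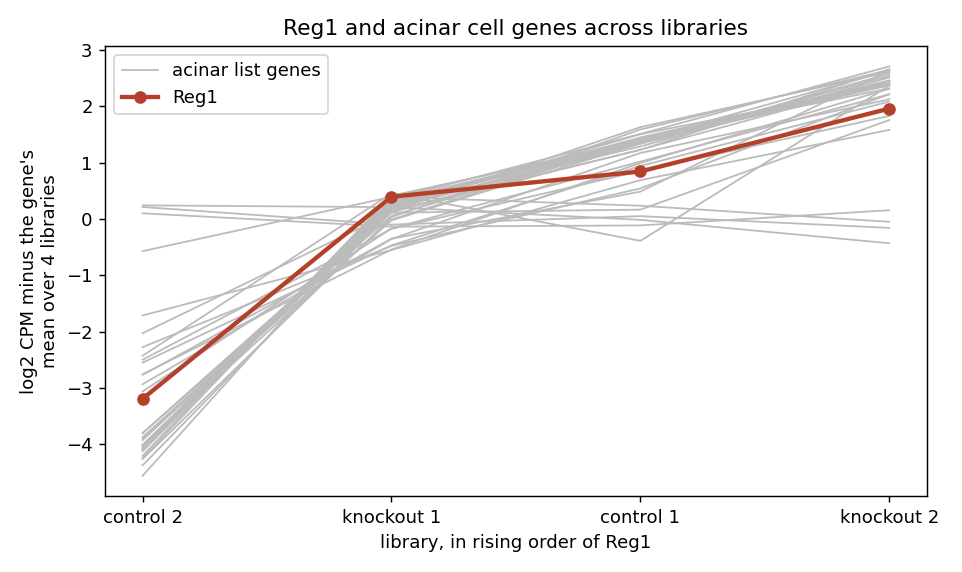
Log2 CPM of Reg1 (red) and of 35 tested acinar markers (grey), each minus its own mean over the 4 libraries, with libraries in rising order of Reg1. Control replicate 2 is lowest and knockout replicate 2 highest for Reg1 and for all but a few grey lines, and the red line is less steep than most grey ones.

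Reg1 did not keep a fixed ratio to the acinar enzymes. Ratios of raw counts were compared between libraries only, since the genes differ in length. Per 100 counts of Pnlip there were 11.6 counts of Reg1 in control replicate 1 (exact 95% interval 10.5 to 12.7) and 12.7 in knockout replicate 2 (11.9 to 13.6), the libraries with the most acinar RNA. The ratio was 19.5 in knockout replicate 1 (17.5 to 21.7) and 32.0 in control replicate 2 (20.8 to 48.1), the library with the least. Against the sum of Pnlip, Cpb1 and Cpa1 the ratios were 4.31, 10.4, 7.27 and 4.62 per 100 in control replicates 1 and 2 and knockout replicates 1 and 2. For 22 of the 33 acinar markers the ratio of Reg1 was highest in control replicate 2, and 26 of the 33 had a wider span than Reg1. The order of the ratios did not follow genotype, as each group held 1 library with a low ratio and 1 with a higher one. These intervals cover counting error and compare libraries, not conditions.

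**Figure D5:**
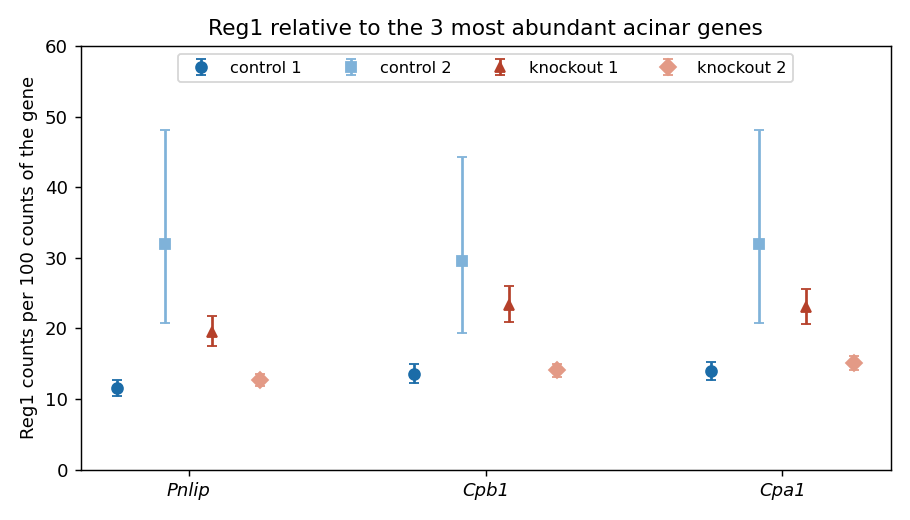
Raw counts of Reg1 per 100 counts of Pnlip, Cpb1 or Cpa1 in each library, with exact 95% counting intervals as bars. For each enzyme gene, control 1 and knockout 2 lie between 11.6 and 15.1, and knockout 1 and control 2 lie between 19.5 and 32.0.

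The genes whose profile over the 4 libraries was most like that of Reg1 were sought among 12400 named genes, by the root mean square difference of centred log2 CPM. The closest was Fosb, an immediate-early gene of the AP-1 family, at 0.27, with counts of 4402, 383, 3208 and 6624 in control replicates 1 and 2 and knockout replicates 1 and 2. The acinar granule protein gene Cuzd1 followed at 0.327, with 152, 8, 75 and 313 counts. Pdia2, a disulfide isomerase gene of the pancreas, came next at 0.407, with 130, 10, 67 and 204 counts. Of the 60 nearest genes, 29 are in the list of acinar markers and 31 are outside it. The list need not hold every acinar gene, and Pdia2 is among the 31. All 60 were lowest in control replicate 2, as Reg1 is, which the choice by likeness to Reg1 largely fixed in advance. Those outside the list also included heat-shock, immediate-early and clock genes, named after their values were seen. Examples are Hspa1b with 355, 79, 536 and 1018 counts, Jun with 1857, 676, 1439 and 3329, and Nr1d1 with 999, 243, 1305 and 1362. Control replicate 2 thus stood low in these chosen genes outside the acinar list as well, and the part of this in the Reg1 value was not tested. Without such a choice, 49 of 15126 genes were more than 4-fold lower in control replicate 2 than in control replicate 1, and 15 were higher. The likeness was used to choose these genes, and 4 points that come from the same libraries allow no test of such likeness.

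The proposed Reg receptor gene Extl3 varied little. It gave 529 and 563 counts in the control and 571 and 533 in the knockout libraries, or 61.0 ± 1.94 and 64.7 ± 7.996 CPM (SD, n = 2 each). Its log2 fold change was 0.09 with a 95% confidence interval of -0.25 to 0.42 (adjusted p = 0.9998 in edgeR). Reg4, the family member outside the cluster, had 0 counts in all 4 libraries.

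Genes of the cytokine route that acts on Reg promoters were measured alongside, and none of the lists that follow had a called gene with the filter on low counts. Over all 16924 genes tested, 8564 values were positive and 8360 negative. Among 13 cytokine ligands 5 could be tested, with 4 negative values and a median of -0.34. Il22, the ligand known for inducing Reg3b and Reg3g, had 0 counts in every library. Il6 gave 14 and 47 counts in the control and 8 and 7 in the knockout libraries, with a log2 fold change of -1.92 ± 0.60 and an adjusted p of 0.9998 in edgeR. Without the filter its adjusted p was 0.0390 in the same test, with an SE of 0.48 on the same counts, so that call too depended on the estimate of spread. It was highest in control replicate 2, the library with the least Reg1. Among 13 tested receptor genes 7 had positive and 6 negative values (median 0.04). Il6ra, the interleukin 6 receptor chain, averaged 153 ± 41.9 CPM over the control and 201 ± 41.4 CPM over the knockout libraries, while Il22ra1 had between 1 and 4 counts. Tnfrsf1a, a receptor of tumour necrosis factor, stood at -0.49 ± 0.18.

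All 8 JAK and STAT genes could be tested, and 7 had negative values with a median of -0.23. Stat3 averaged 413 ± 12.3 CPM over the control and 335 ± 50.7 CPM over the knockout libraries (log2 fold change -0.30 ± 0.15). Among 17 tested targets and inhibitors of STAT3 signalling 12 had positive values (median 0.10). Socs3, the feedback inhibitor, gave 269 and 281 counts in the control and 219 and 377 in the knockout libraries, with a log2 fold change of 0.23 ± 0.36. The kinase gene Pim3 stood at 0.69 ± 0.26. Il6, Tnfrsf1a and Pim3 were among the genes of these lists with an unadjusted p under 0.05.

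Many genes that rise with Reg3 genes in inflamed epithelium had few or no counts. Of 22 acute phase and antimicrobial genes 7 could be tested, with a median of -0.35 and 0 called. There were 8 genes at 0 counts in all libraries, among them Saa1, S100a8 and Nos2, and Lcn2 had 1 count at most. Others were measured at steady levels, such as the immunoglobulin receptor gene Pigr, with 158 to 264 counts. Dmbt1, which encodes a mucosal defence protein, was the listed gene of widest range, with counts of 1388, 49, 898 and 3207 in control replicates 1 and 2 and knockout replicates 1 and 2, ranked as in Reg1. Among 9 tested injury and regeneration genes the median was -0.12 with 0 called. The stress-induced transcription factor gene Atf3 gave 493 and 58 counts in the control and 336 and 1043 in the knockout libraries, also in the order of Reg1, and was named after its values were seen, as were Dmbt1 and Socs3. Among 11 tested cell cycle genes 8 had negative values (median -0.11), with the proliferation marker Mki67 at -0.61 ± 0.43 and 0 called.

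Summed levels of the markers of other cell types varied less between libraries than Reg1 did. The 22 ductal markers summed to 2297 and 2221 CPM in control replicates 1 and 2 and to 2006 and 1830 CPM in knockout replicates 1 and 2. Defining ductal genes were low, with 5 to 17 counts of Krt19, 11 to 14 of Sox9 and at most 2 of Cftr. Single ductal markers varied more than the sum, though less than Reg1, and 2 of them are named after their values were seen. Tff2, the gene of a trefoil peptide, gave 65, 19, 34 and 115 counts in control replicates 1 and 2 and knockout replicates 1 and 2, a 7.55-fold span in CPM with the libraries ranked as for Reg1. Spp1, the osteopontin gene, spanned 8.98-fold and was highest in control replicate 2, with 1614 counts against 184 to 378 in the other libraries. The 11 endothelial markers summed to between 449 and 542 CPM, the 11 stellate and fibroblast markers to between 163 and 248 CPM, and the 9 lymphocyte markers to between 25.5 and 33.2 CPM. The 17 macrophage markers summed to 122 and 102 CPM in the control and 87.4 and 75.4 CPM in the knockout libraries, and all 14 tested had negative log2 fold changes, with 5 below 0.05 before adjustment and 0 called. The leukocyte gene Ptprc was among these 5, at -0.94 ± 0.24. Of the endothelial and stellate lists, 1 and 2 genes were lower at that level and 0 were called. Among all 16924 genes tested, 331 were lower at that level and 8360 had negative values.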

How the data were processed

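Raw counts for 4 libraries were deposited by Ensembl identifier. The authors used HISAT2, featureCounts and GRCm39, per the submitters' processing notes, and a directional library kit, per the labels' protocols. For tool versions, annotation release, the strand setting of the counting and multi-mapping reads, the sources used here give nothing. Symbols came from GENCODE M21, which matched 52403 of 52636 identifiers. Transcript lengths came from the same release and promoters from RefSeq (GRCm38.p6).

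Counts were fitted in edgeR 4.0.16 (R 4.3.3) with filterByExpr (minimum count 10), TMM scaling and a two-sided quasi-likelihood F test (robust option) without covariates, with Benjamini-Hochberg adjustment and a threshold of 0.05. DESeq2 1.42.0 and limma 3.58.1 were alternatives. CPM are TMM-scaled, and log2 fold changes are knockout against control. Likeness used log2 CPM with a prior count of 2.

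The members and gene lists were chosen with earlier results of these data known. Named genes were all members, Tspan7, Reg4, Extl3, the 3 acinar genes of highest CPM, the 3 nearest profiles, and examples from the 3 genes of smallest p in each list. Genes named because they stood at 0, defined a cell type or belonged to the interleukin 6 and 22 route were added afterwards.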

Additional observations from a re-analysis of the deposited data

How the results depend on the processing

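No Reg member was called under any of the 14 alternatives that counted calls. Reg1 was the only member fitted in most of these, and all 6 were fitted only in DESeq2 and without a low-count filter. Reg1 kept a positive log2 fold change in all 15 alternatives fitted for it, from 0.47 to 4.64. These refit the same libraries or a part of them, so the shared sign adds no support for a direction. The lowest adjusted p for Reg1 was 0.811 in edgeR. Depth limits the other members, which together gave 61 counts. The number of genes called among all tested was 1 with all libraries, and 62 without a low-count filter, 4 in DESeq2 and 16 with the likelihood ratio test. The 62 included Prss3 and Il6. With 1 library left out it ran from 1 (without either knockout replicate) to 48 (without control replicate 1). In those fits the lone sample of a group is assumed to vary like the other group. Same-numbered libraries tended to deviate in opposite directions (correlation -0.322 over 15131 genes). With so few libraries, and genes that vary together, this does not settle whether the labels' numbers mark pairs. The replicate block gave 6 called genes and a Reg1 value of 2.08. The crossed pairing, chosen after seeing the data, gave 2 called genes. The planned median over tested members is the Reg1 value, since 1 member was tested, and was not computed apart. The cause of the changes in count was not tested.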
